A study of Mus musculus with 96 samples.

Results

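Interferon-stimulated genes are the genes that cells switch on after an interferon, a secreted antiviral signal, binds its receptor. The 8 genes described here are Ifit1, Ifit2, Ifit3, Isg15, Irf7, Oasl2, Rsad2 and Usp18. They were taken by symbol from the 25095 gene symbols of the series, with 1 transcript standing for each symbol, the most abundant on average, and all 8 were measured in all 4 expression tables. The study asked how hepatocyte loss of REV-ERBα and REV-ERBβ, nuclear receptors that repress transcription in the circadian clock, with or without loss of the SREBP escort protein SCAP, changes daily transcription in hepatocytes and in the neighbouring liver macrophages.

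Bulk RNA sequencing gave 96 libraries from male C57BL/6J mice at ZT4, ZT10, ZT16 and ZT22 (ZT counts hours from lights on, and lights went off at ZT12) and in each cell type every genotype had 3 libraries at every time point. Control, RevDKO and RevScapTKO mice carried floxed alleles of Nr1d1 and Nr1d2 or of these genes and Scap, and ScapKO denotes deletion of Scap alone. At 8 weeks of age the Control mice received an adeno-associated virus encoding GFP and the deleted mice one encoding Cre, both under the hepatocyte-specific TBG promoter, so the Control group had also been exposed to virus. All groups ate an obesogenic diet rich in fat and sucrose for 4 weeks. Liver macrophages came from the same kinds of mice and were themselves not the target of the deletion. Values are RPKTM, the read density per kilobase of transcript on a scale 10 times that of RPKM, and were quantile normalized apart in each of 4 tables. Control, RevDKO and RevScapTKO shared a table for each cell type (36 libraries each), and ScapKO had its own (12 libraries each). Levels are therefore compared within a table only.

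The labels were checked first. Scap was lower in hepatocyte libraries labelled RevScapTKO than in Control by 1.30 on the log2 scale (209 ± 63.5 against 495 ± 73.1 RPKTM, SD, n = 12 each, adjusted p = 2.87e-08). Nr1d1 and Nr1d2 were not lower in the libraries labelled RevDKO (138 ± 108 against 90.7 ± 119 for Nr1d1, 312 ± 116 against 228 ± 141 for Nr1d2), and the values cover whole transcripts, so they show nothing of a deleted exon alone. Nr1d1 was higher in the libraries labelled RevDKO by 1.55 on the log2 scale (adjusted p = 8.87e-05) and in those labelled RevScapTKO by 1.79. Whole-transcript values of these genes therefore did not check the deletion. Arntl (Bmal1), a clock gene that REV-ERBs repress, was looked at after the other values were seen. It ran from 4.21 to 10.6 RPKTM in Control at ZT10, from 117 to 145 in the libraries labelled RevDKO and from 96.7 to 117 in those labelled RevScapTKO, with no overlap with Control. Over the day it was higher than in Control by 1.83 ± 0.13 (SE, adjusted p = 1.6e-11) and 1.6 ± 0.13 (SE, adjusted p = 3.94e-11) on the log2 scale. Hepatocyte libraries carried the hepatocyte markers Alb and Hnf4a in all 36 cases. The macrophage libraries also held hepatocyte RNA: the 12 hepatocyte markers summed to a median of 105020 RPKTM in Control macrophages, against 20599 RPKTM for 14 macrophage markers, and Alb alone took over 10% of the column in 3 of 36 libraries. The ScapKO hepatocyte samples carry a cell type label of liver macrophages but titles naming hepatocytes, and the titles were followed: Alb ran from 196187 to 908028 RPKTM in them and from 10156 to 70232 in ScapKO macrophages. The sequencing depth is unknown, so precision rests on the spread between libraries, and where nothing says that libraries came from separate animals the p-values measure only that spread.

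Type I interferons signal through their receptor to the kinases JAK1 and TYK2, which activate transcription factors, STAT2 and IRF9 among them, that bind an interferon-stimulated response element in promoters. IRF7 is the transcription factor that amplifies interferon production. IFIT1, IFIT2 and IFIT3 bind viral RNA or block its translation, OASL2 belongs to the oligoadenylate synthetase family, and RSAD2 (viperin) makes an antiviral nucleotide. ISG15 is a ubiquitin-like modifier, and USP18 removes it from proteins and also damps signalling at the receptor. In liver, resident macrophages and hepatocytes both respond to interferon.

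The core of the response element was looked for in the members' own promoters, because these genes moved together (250 bases upstream of the annotated start, mm9, both strands, letters GAAANNGAA, overlapping matches counted). It was present upstream of Ifit1 (chr19:34715129-34715378, plus strand), Ifit3 (chr19:34657769-34658018, plus strand), Isg15 (chr4:155574928-155575177, minus strand), Rsad2 (chr12:27141318-27141567, minus strand) and Usp18 (chr6:121195674-121195923, plus strand). The 5 windows, read on the gene's strand from 5′ to 3′ with the matches in capitals, show where the letters lie.
Ifit1: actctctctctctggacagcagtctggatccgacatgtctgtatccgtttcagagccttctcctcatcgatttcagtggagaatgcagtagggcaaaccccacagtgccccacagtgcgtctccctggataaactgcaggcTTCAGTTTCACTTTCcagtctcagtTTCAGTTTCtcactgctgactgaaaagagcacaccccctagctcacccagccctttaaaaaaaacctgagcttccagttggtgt
Ifit3: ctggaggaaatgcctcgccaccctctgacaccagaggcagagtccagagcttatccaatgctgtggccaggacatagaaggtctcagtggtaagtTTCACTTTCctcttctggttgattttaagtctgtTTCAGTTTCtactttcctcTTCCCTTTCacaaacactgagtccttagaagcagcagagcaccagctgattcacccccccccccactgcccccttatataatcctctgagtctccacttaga
Isg15: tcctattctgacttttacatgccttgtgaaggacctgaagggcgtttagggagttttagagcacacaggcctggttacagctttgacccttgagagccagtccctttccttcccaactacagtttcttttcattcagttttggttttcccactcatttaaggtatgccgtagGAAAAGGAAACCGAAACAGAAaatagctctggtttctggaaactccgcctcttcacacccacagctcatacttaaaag
Rsad2: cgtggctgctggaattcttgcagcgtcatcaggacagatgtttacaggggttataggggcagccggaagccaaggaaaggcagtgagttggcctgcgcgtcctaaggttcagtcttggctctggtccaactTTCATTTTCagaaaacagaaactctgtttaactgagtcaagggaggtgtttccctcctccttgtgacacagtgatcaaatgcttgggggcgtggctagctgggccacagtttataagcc
Usp18: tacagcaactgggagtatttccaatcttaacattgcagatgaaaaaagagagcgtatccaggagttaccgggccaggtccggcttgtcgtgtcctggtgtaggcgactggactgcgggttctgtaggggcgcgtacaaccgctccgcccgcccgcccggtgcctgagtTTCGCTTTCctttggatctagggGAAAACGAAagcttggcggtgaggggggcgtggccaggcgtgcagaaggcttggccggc
In Isg15 the 3 matches overlapped and ran from 78 to 58 bases before the start. Ifit1 and Ifit3 held 3 matches each, Usp18 2 and Rsad2 1. The windows of Ifit2, Irf7 and Oasl2 held no match. The core was present in 5 of 8 members (62.5%), in 23 of 45 windows of other type I interferon-stimulated genes (51.1%), in 15 of 24 windows of interferon gamma-responsive genes (62.5%), and in 1789 of 25016 windows of all genes (7.15%). A match is a stretch of letters and not a measured binding site.

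The members lie on 6 chromosomes. Ifit2 (NM_008332, chr19:34625184-34651024), Ifit3 (NM_010501, chr19:34658019-34663472) and Ifit1 (NM_008331, chr19:34715379-34724499) share a cluster on the plus strand of chromosome 19. Oasl2 (NM_011854) lies at chr5:115346943-115362254 and Usp18 (NM_011909) at chr6:121195924-121220935, both on the plus strand. Isg15 (NM_015783, chr4:155573533-155574927), Irf7 (NM_016850, chr7:148449082-148452323) and Rsad2 (NM_021384, chr12:27127608-27141317) lie on the minus strand. No member overlapped another listed gene. Ifit1 lay 146 bp from Ifit1bl2, and Ifit1bl1, Ifit1bl2 and Ifit3b are near copies of the family, so the assignment of reads among Ifit genes is uncertain.

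In Control hepatocytes Irf7 and Rsad2 had the highest levels per transcript length, with medians of 42.1 and 40.7 RPKTM. Usp18 (26.5), Ifit1 (22.7), Ifit3 (18.8), Ifit2 (11.3), Oasl2 (7.37) and Isg15 (4.76) followed. The ranges of all neighbours in this order overlapped. By the mean over all 36 libraries of the 3 genotypes, Irf7 lay above 82.3% of all genes of the hepatocyte table and Isg15 above 56.3%. In Control liver macrophages Irf7 led with a median of 222 RPKTM, followed by Ifit2 (76.1), Rsad2 (45.1), Ifit3 (40.9), Oasl2 (38.3), Usp18 (13.2), Ifit1 (11.8) and Isg15 (3.75), again with overlapping ranges between neighbours.

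In hepatocytes all 8 genes rose in the libraries labelled RevScapTKO against Control. The differences of the averages over the day lay between 1.21 for Ifit1 and 1.80 for Rsad2 on the log2(RPKTM + 1) scale, and the median was 1.58. Of 13326 genes tested, 35.9% passed the same threshold (limma, Benjamini-Hochberg adjusted p under 0.05), 2301 higher and 2488 lower. The median difference of all genes was -0.04. For each member the mean was higher at 4 of 4 time points. The interval plot of genotype differences places the 3 contrasts side by side.

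**Figure D1:**
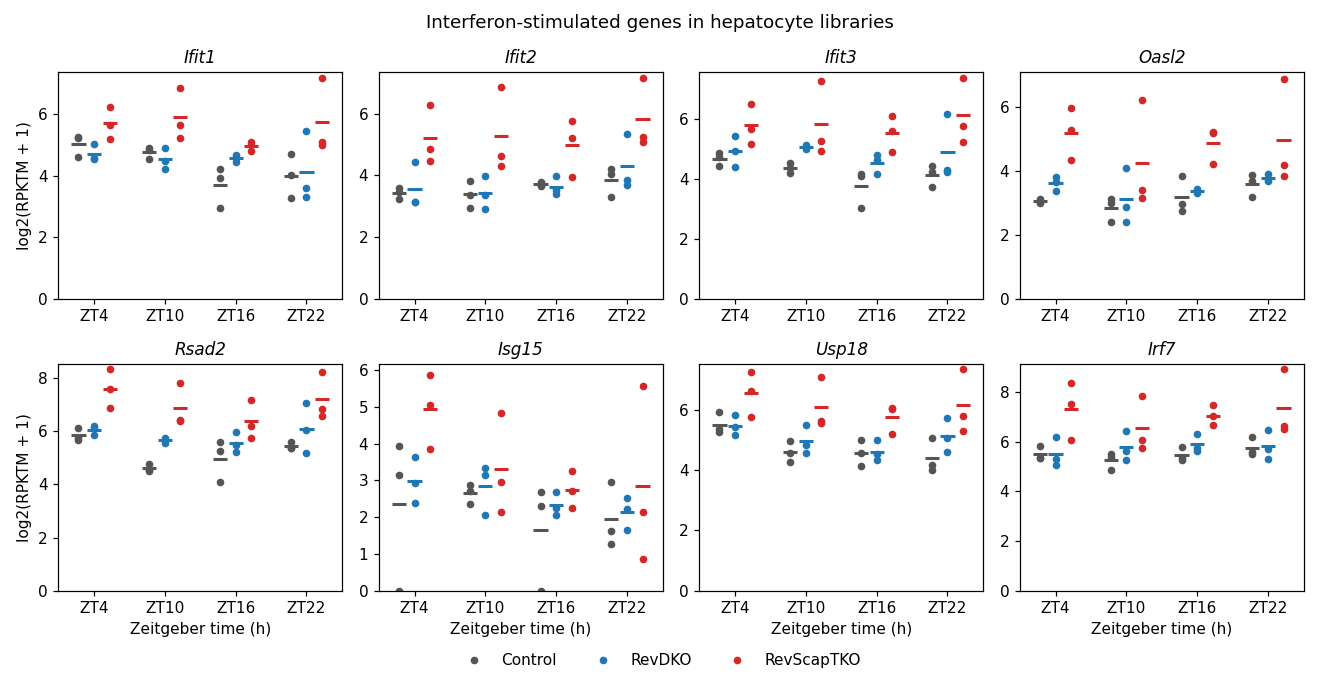
Levels of the 8 interferon-stimulated genes in hepatocyte libraries, as log2(RPKTM + 1) on the vertical axis, by zeitgeber time in hours. Each point is a library (3 per genotype and time point) and each bar the mean of its group. The RevScapTKO mean is the highest of the 3 at all 4 time points for all 8 genes, and single RevScapTKO libraries reach far above their group mean.

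Among the IFIT genes, Ifit3 separated RevScapTKO from Control fully. It ranged from 7.22 to 28.3 RPKTM in Control (median 18.8), from 17.1 to 70.8 in RevDKO (median 28.4), and from 28.7 to 165 in RevScapTKO (median 49.3). All 12 RevScapTKO libraries were above the highest Control library, while 3 of 12 were above the highest RevDKO library. The share of all genes that separate in this way was not counted, here or for the other members. The difference from Control was 1.58 ± 0.26 (SE, adjusted p = 2.36e-05).

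Ifit2 ranged from 6.75 to 17.2 RPKTM in Control (median 11.3), from 6.56 to 39.8 in RevDKO (median 11.2) and from 14.4 to 140.1 in RevScapTKO (median 34.5). The RevScapTKO library at ZT16 replicate 1 was the only one of its 12 not above the Control range. The difference from Control was 1.7 ± 0.29 (SE, adjusted p = 3.47e-05), which was 3.30-fold on the scale with the pseudocount.

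Ifit1 ranged from 6.74 to 37.4 RPKTM in Control (median 22.7), from 8.81 to 42.2 in RevDKO (median 22.3) and from 26.7 to 141 in RevScapTKO (median 36.1). The groups overlapped, with 5 of 12 RevScapTKO libraries above all Control libraries. The difference from Control was 1.21 ± 0.25 (SE, adjusted p = 0.000343).

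The antiviral effector Rsad2 had the smallest p-value of the members in hepatocytes of RevScapTKO against Control. It ranged from 15.9 to 68.8 RPKTM in Control (median 40.7), from 35.5 to 133 in RevDKO (median 55.1) and from 52.7 to 322 in RevScapTKO (median 116). Of the RevScapTKO libraries 11 of 12 exceeded the highest Control library. The difference from Control was 1.80 ± 0.22 (SE, adjusted p = 2.75e-07). Oasl2 was lower in level, from 4.31 to 13.7 RPKTM in Control (median 7.37), from 4.31 to 16.1 in RevDKO (median 10.7) and from 7.94 to 116 in RevScapTKO (median 27.2). For Oasl2 9 of 12 RevScapTKO libraries were above the range of either other group, and the difference from Control was 1.66 ± 0.31 (SE, adjusted p = 0.000105).

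Isg15 had the lowest level and the widest spread. In Control hepatocytes the values by time point were 14.4, 0 and 7.84 RPKTM at ZT4, 5.55, 6.38 and 4.14 at ZT10, 3.96, 0 and 5.38 at ZT16, and 6.73, 2.08 and 1.40 at ZT22. In RevScapTKO they were 13.5, 58.0 and 32.3 at ZT4, 6.80, 27.6 and 3.44 at ZT10, 5.55, 3.71 and 8.47 at ZT16, and 0.816, 46.6 and 3.40 at ZT22. Only 4 of 12 RevScapTKO libraries exceeded the highest Control library, and the groups overlapped. The difference from Control was 1.30 ± 0.45 (SE, adjusted p = 0.0231). It missed the threshold without Control ZT4 replicate 2 (adjusted p = 0.0598) or Control ZT16 replicate 2 (adjusted p = 0.0531), the 2 libraries in which Isg15 is listed at 0. It also missed without RevScapTKO ZT10 replicate 2 (adjusted p = 0.0545) or ZT22 replicate 2 (adjusted p = 0.0591).

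Usp18, which reverses ISG15 conjugation, ranged from 14.9 to 59.7 RPKTM in Control (median 26.5), from 19.1 to 55.4 in RevDKO (median 31.4) and from 35.9 to 163 in RevScapTKO (median 59.3). All 12 RevScapTKO libraries were above the Control median and 6 above the Control range. The difference from Control was 1.36 ± 0.22 (SE, adjusted p = 2.3e-05). Irf7 ranged from 28.1 to 71.3 RPKTM in Control (median 42.1), from 32.1 to 88.3 in RevDKO (median 49.4) and from 52.7 to 486 in RevScapTKO (median 114). For Irf7 9 of 12 RevScapTKO libraries were above all libraries of both other groups, and the difference from Control was 1.57 ± 0.26 (SE, adjusted p = 3.3e-05).

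Between RevScapTKO and the libraries labelled RevDKO, 7 of 8 members rose in hepatocytes. Of all genes 26.2% were called in this contrast, 1800 higher and 1698 lower. The differences ran from 0.96 for Ifit3 to 1.58 for Ifit2, and the median over all 8 was 1.14 beside -0.03 for all genes. Isg15 was 0.89 higher (95% interval -0.03 to 1.80, adjusted p = 0.143), and it passed without RevScapTKO ZT22 replicate 1 (adjusted p = 0.0496). Between the libraries labelled RevDKO and Control no member passed the threshold in the limma fit, beside 4.43% of all genes. The member with the smallest p was Rsad2, with a difference of 0.62 ± 0.22 (SE, adjusted p = 0.12), and Ifit3 differed by 0.62 ± 0.26 (SE, adjusted p = 0.201). These 2 members had an unadjusted p under 0.05. For Ifit3 6 of 12 RevDKO libraries exceeded the highest Control library. The intervals of the other 6 members included 0, with upper bounds between 0.61 for Ifit1 and 1.33 for Isg15. The fit shared 1 estimate of the spread among the 3 genotypes. With only RevDKO and Control in the limma fit 1 member passed between them (adjusted p = 0.032). With library weights 2 members passed between RevDKO and Control (smallest adjusted p = 0.0245). The 3 contrasts share libraries and are not independent of one another.

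**Figure D2:**
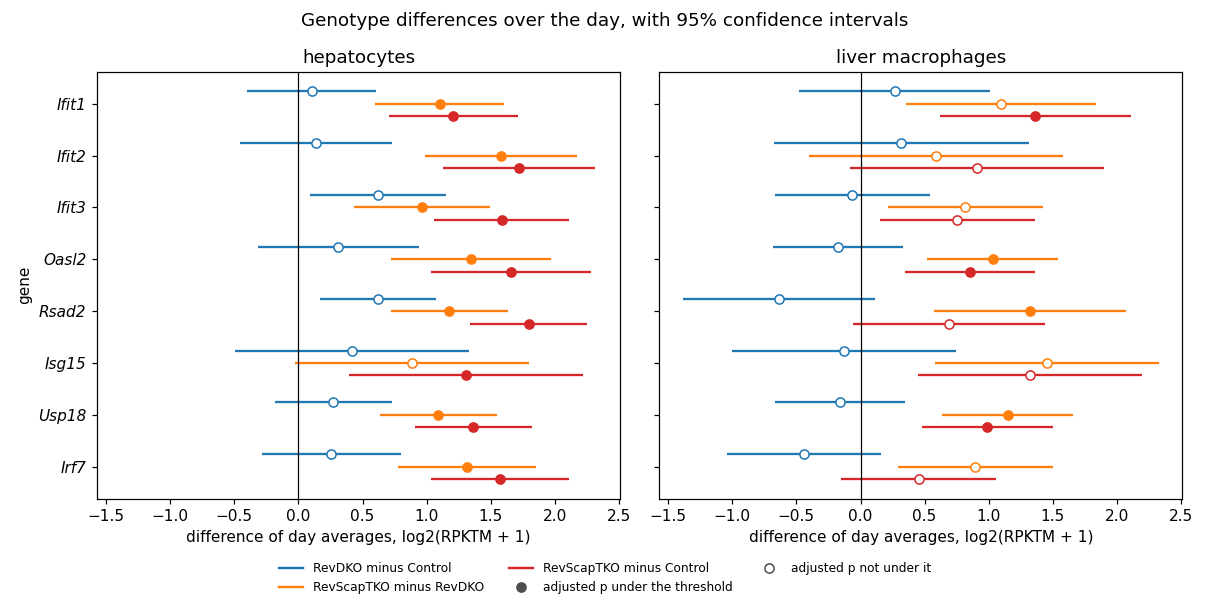
Differences between genotypes of the averages over the day, on the log2(RPKTM + 1) scale (horizontal axis), for each gene in hepatocytes and liver macrophages. Points are limma estimates, lines are 95% confidence intervals, filled points have an adjusted p under 0.05. In hepatocytes every RevScapTKO minus Control interval lies above 0, while in liver macrophages 3 of 8 are filled.

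Markers of other liver cells moved with these results in the hepatocyte libraries. All 14 macrophage markers rose in RevScapTKO against Control, by 0.73 to 2.01 with a median of 1.21, and all 14 rose against RevDKO, with a median of 1.04. Their summed level ran from 287 to 3651 RPKTM in Control (median 1047), from 498 to 2874 in RevDKO (median 1296) and from 1104 to 7112 in RevScapTKO (median 3332). Of the endothelial markers 7 of 8 and of the stellate cell markers 5 of 6 also rose against Control. Of the 3 monocyte markers high enough to test only Ccr2 passed against Control, with a rise of 1.16 ± 0.28 (SE, adjusted p = 0.00172). In bulk libraries more cells of a type and more RNA per cell cannot be told apart.

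With the mean log2 level of the macrophage markers as a covariate in the hepatocyte fit, 1 of 8 members passed against Control and 0 of 8 against RevDKO. The member was Rsad2, with a difference of 1.23 (adjusted p = 0.00685). All 8 differences remained above 0 in both contrasts, with medians of 0.81 and 0.55. The number of all genes past the threshold fell from 4789 to 793 against Control and from 3498 to 355 against RevDKO. With endothelial markers as the covariate 5 members passed in each contrast. The summed macrophage marker level differed between time points within Control, from 287 to 784 RPKTM at ZT4, 610 to 937 at ZT10, 1157 to 2830 at ZT16 and 2644 to 3651 at ZT22. The mean log2 level of the 8 members in Control was 4.58, 4.16 and 4.53 at ZT4 and 4.12, 4.13 and 3.93 at ZT10. It was 4.10, 3.26 and 4.28 at ZT16 and 4.52, 3.75 and 4.15 at ZT22. What part macrophage RNA had in the levels of the members was not tested. Of the 12 RevScapTKO libraries, 11 had a summed marker level above every Control library of their own time point, all except 1 at ZT16. The covariate thus went largely with genotype, and a fit with it cannot tell marker level and genotype apart. Over the 36 hepatocyte libraries, deviations from group means of the members and of the macrophage markers had a Pearson r of 0.54 and a Spearman rho of 0.46, and r was 0.48 without the 2 libraries farthest from the median of the markers. Other lists also varied with the members. Pearson r and Spearman rho were 0.57 and 0.63 for monocyte markers and -0.50 and -0.43 for hepatocyte markers. They were 0.56 and 0.45 for T and NK cell markers, 0 of which were high enough to test. The endothelial, stellate cell, neutrophil, B cell and plasmacytoid lists had r from 0.22 to 0.33.

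**Figure D3:**
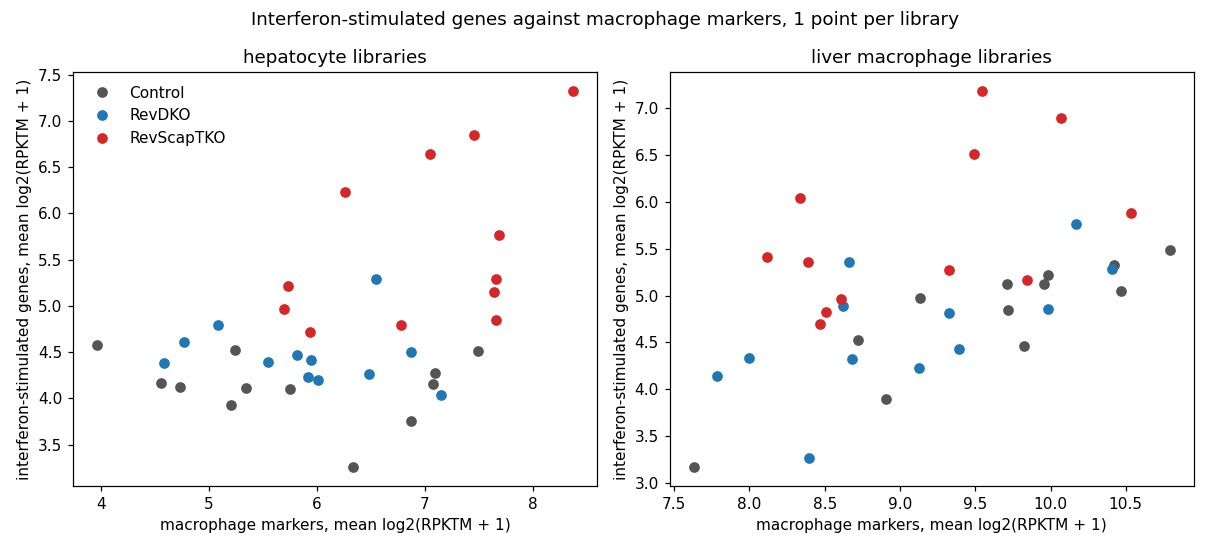
Mean log2(RPKTM + 1) of the 8 interferon-stimulated genes (vertical axis) against that of the macrophage markers (horizontal axis), 1 point per library, coloured by genotype. In hepatocyte libraries the RevScapTKO points reach higher and further to the right than the Control points. The marker levels that both genotypes share come largely from different time points. At ZT4, ZT10 and ZT22 every RevScapTKO library has a higher summed marker level than every Control library of that time. At ZT16 2 of 3 RevScapTKO libraries do.

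The members varied together from library to library. Deviations from the group means correlated positively in all 28 pairs of members over the 36 hepatocyte libraries, with a median r of 0.70 (0.43 to 0.91), and over the 36 macrophage libraries, with a median r of 0.50 (0.25 to 0.79). These libraries share a normalization and, in pairs of neighbouring genes, a locus. In RevScapTKO hepatocytes at ZT10 and ZT22 the library with replicate number 2 was the highest for all 8 members. At ZT22 Irf7 was 90.9, 486 and 97.7 RPKTM in the 3 libraries and Ifit2 was 32.9, 140.1 and 36.5. Without the 4 RevScapTKO libraries numbered 2, a choice made after the values were seen, 7 members passed against Control and 6 against RevDKO, with median differences of 1.1 and 0.82.

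The genes whose deviations most resembled the members' mean in hepatocytes were Irgm2 (r = 0.90 over 36 libraries), Parp12 (0.87), Lgals3bp (0.86), Herc6 (0.85) and Samd9l (0.85). In liver macrophages they included Oas3 (0.83), Tapbp (0.83), Psmb8 (0.83) and Lgals3bp (0.82). Of the 30 nearest genes, 14 in each cell type were in a list of interferon genes compiled for this work.

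Upstream of the members, the interferon pathway was seen through its ligands, receptors and sensors. Of the interferon genes looked for, only Ifnk was high enough to test in either cell type, and its difference between RevScapTKO and Control hepatocytes was -0.20 (not past the threshold). Of the receptors and JAK-STAT components 7 of 14 rose in RevScapTKO hepatocytes against Control, beside 35.9% of all genes called in either direction. They included the transcription factors Stat2 (0.61 ± 0.17, SE, adjusted p = 0.00593) and Irf9 (0.55), and the interferon gamma receptor chains Ifngr1 (0.66) and Ifngr2 (0.57). The type I receptor genes Ifnar1 and Ifnar2 differed by 0.14 and 0.18 and did not pass. Of the sensors, adaptors and regulatory factors 6 of 17 rose and 2 fell. The nucleic acid sensors Zbp1 (1.26), Tlr7 (1.17), Ifih1 (0.70) and Dhx58 (0.70) were higher, and the mitochondrial adaptor Mavs fell by 0.63 (adjusted p = 1.9e-05). With the macrophage marker covariate 0 of the 14 and 0 of the 17 passed against Control, and likewise against RevDKO.

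Among 42 other type I interferon-stimulated genes 34 rose and 0 fell in RevScapTKO hepatocytes against Control, with a median difference of 0.92. The largest were Oas3 (2.1 ± 0.41, SE, adjusted p = 0.000208), Ifi44 (1.79), Oas2 (1.76) and Mx1 (1.69), members of antiviral families. Of 22 interferon gamma-responsive genes 15 rose and 0 fell, with a median of 0.58, led by the chemokine Cxcl10 (1.7 ± 0.32, SE, adjusted p = 0.000154) and the guanylate-binding proteins Gbp5 (1.5), Gbp3 (1.37) and Gbp4 (1.34). The share of all genes called was 35.9% in this contrast. Against RevDKO the counts were 34 of 42 and 17 of 22, all higher, beside 26.2% of all genes called in either direction. With the macrophage marker covariate 2 of 42 and 0 of 22 passed against Control, and 1 of 42 and 0 of 22 against RevDKO. With the endothelial covariate the counts were 9 and 2 against Control and 11 and 5 against RevDKO. Between RevDKO and Control none of these genes passed in either cell type.

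In liver macrophages fewer members passed. Against the libraries labelled RevDKO 3 of 8 rose in RevScapTKO, namely Oasl2, Rsad2 and Usp18. Of all 13947 genes tested 3% were called, 171 higher and 248 lower. Against Control 3 of 8 members rose, namely Ifit1, Oasl2 and Usp18. Of all genes 3.76% were called, 332 higher and 192 lower. The differences of all 8 members were above 0 in both contrasts. Their medians were 1.06 against RevDKO and 0.88 against Control, beside 0.04 and -0.04 for all genes. At an unadjusted p under 0.05 there were 7 and 5 members. Between RevDKO and Control no member passed in the limma fit, beside 0.574% of all genes, no member had an unadjusted p under 0.05, and the differences ran from -0.64 for Rsad2 to 0.32 for Ifit2.

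**Figure D4:**
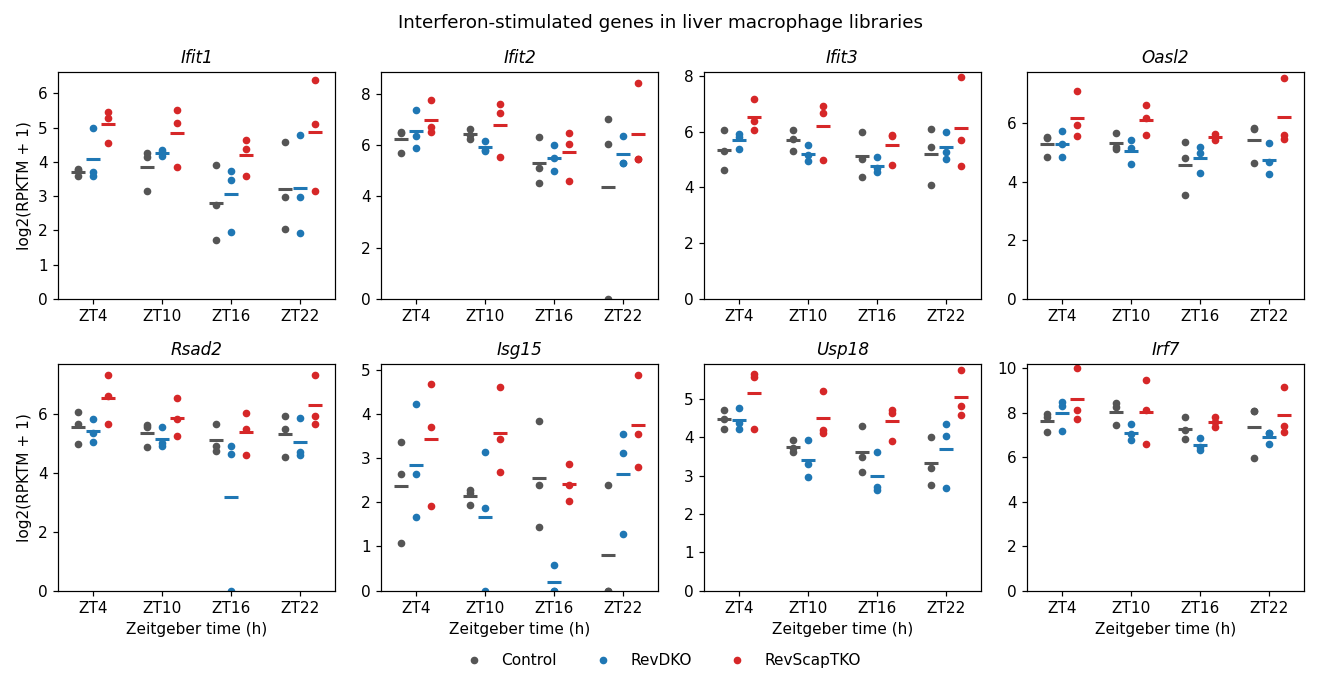
Levels of the same 8 genes in liver macrophage libraries, as log2(RPKTM + 1) on the vertical axis, by zeitgeber time in hours. Each point is a library and each bar the mean of 3. The genotypes overlap for every gene, a few libraries are listed at 0 for Ifit2, Rsad2 or Isg15, and single RevScapTKO libraries at ZT4, ZT10 and ZT22 stand highest.

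Usp18 passed in both macrophage contrasts. It ranged from 5.72 to 25.2 RPKTM in Control (median 13.2), from 5.12 to 26.4 in RevDKO (median 12.8) and from 14.1 to 53.2 in RevScapTKO (median 24.5). All 12 RevScapTKO libraries were above the median of either other group, 5 of 12 above its highest library. The differences were 1.15 ± 0.25 against RevDKO (SE, adjusted p = 0.00532) and 0.99 ± 0.25 against Control (SE, adjusted p = 0.0184). Oasl2 ranged from 10.6 to 55.8 RPKTM in Control (median 38.3), from 18.5 to 52.3 in RevDKO (median 32.5) and from 41.8 to 188 in RevScapTKO (median 48.2). Its lowest RevScapTKO library also stood above both medians. The differences were 1.03 ± 0.25 (SE, adjusted p = 0.0146) and 0.86 ± 0.25 (SE, adjusted p = 0.045).

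Ifit1 ranged from 2.31 to 23.0 RPKTM in Control macrophages (median 11.8), from 2.80 to 30.6 in RevDKO (median 12.04) and from 7.86 to 83.0 in RevScapTKO (median 28.5). For Ifit1 7 of 12 RevScapTKO libraries exceeded the highest Control library, and the difference from Control was 1.36 ± 0.37 (SE, adjusted p = 0.0271). Against RevDKO it was 1.10 ± 0.37 (SE, adjusted p = 0.102). Rsad2 ranged from 21.95 to 65.9 RPKTM in Control (median 45.1), from 0 to 56.6 in RevDKO (median 30.3) and from 23.3 to 160.5 in RevScapTKO (median 58.2). It was listed at 0 in the RevDKO library at ZT16 replicate 1. The Rsad2 difference from RevDKO was 1.32 ± 0.37 (SE, adjusted p = 0.0395), and from Control 0.69 ± 0.37 (SE, adjusted p = 0.334).

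The other 4 members did not pass in macrophages. Isg15 was 1.45 ± 0.43 higher in RevScapTKO than in RevDKO (SE, adjusted p = 0.0564) and 1.32 ± 0.43 higher than in Control (SE, adjusted p = 0.08). It was listed at 0 in 5 of 36 libraries, 2 of Control at ZT22 and 3 of RevDKO at ZT10 and ZT16. Irf7, with 61.6 to 343 RPKTM in Control, 79.5 to 359 in RevDKO and 94.7 to 1027 in RevScapTKO, differed by 0.90 ± 0.30 (SE, adjusted p = 0.0992) and 0.45 ± 0.30 (SE, adjusted p = 0.447). Ifit3 differed by 0.82 and 0.75, and Ifit2, listed at 0 in Control ZT22 replicate 3, by 0.59 and 0.91. Whether the genotype difference itself differed between hepatocytes and macrophages was not tested, since their tables were normalized apart.

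The macrophage calls rested on few libraries. At ZT4 and ZT22 the RevScapTKO library numbered 2 was the highest of its 3 for all 8 members: at ZT22 Usp18 was 23.0, 53.2 and 27.0 RPKTM and Ifit1 was 7.86, 83.0 and 33.4. Without the 4 libraries numbered 2, 0 members passed in either contrast, with medians of 0.76 against RevDKO and 0.57 against Control. Leaving out 1 library at a time gave 2 to 5 members against RevDKO and 1 to 4 against Control. Against Control 1 member remained past the threshold without Control ZT10 replicate 2, Control ZT16 replicate 2, RevScapTKO ZT4 replicate 3, ZT10 replicate 2, ZT16 replicate 3 or ZT22 replicate 2. Against RevDKO 5 passed without RevScapTKO ZT10 replicate 3 or ZT22 replicate 1. Rsad2 lost its call against RevDKO, with an adjusted p up to 0.0872, without any one of 12 libraries (RevDKO ZT4 replicates 1 and 3, ZT10 replicates 2 and 3 and ZT22 replicates 1 and 2, and RevScapTKO ZT4 replicates 2 and 3, ZT10 replicate 2, ZT16 replicates 1 and 3 and ZT22 replicate 2). Ifit1 also lost its call against Control without Control ZT22 replicate 2 or RevScapTKO ZT22 replicate 3 (adjusted p = 0.0623 and 0.0545). Oasl2, at an adjusted p of 0.045 in the full fit, lost its call against Control without any one of 17 libraries, among them all 3 of Control at ZT10, with an adjusted p up to 0.109. Usp18 passed in both contrasts whichever library was left out.

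None of the 14 macrophage markers passed in the macrophage libraries in any contrast. Their summed level ranged from 3829 to 43514 RPKTM in Control, with the median given above, from 4689 to 36090 in RevDKO (median 10721) and from 5677 to 35894 in RevScapTKO (median 11246), so the ranges overlapped widely. With the macrophage markers as a covariate, 5 members passed against RevDKO and 6 against Control. Of the 12 hepatocyte markers 2 fell in RevScapTKO macrophages against Control, Cyp2e1 by 1.75 (adjusted p = 4.52e-07) and Cps1 by 0.89 on the log2 scale. Against RevDKO 2 fell, Cyp2e1 by 1.44 and Cps1 by 1.18, and Cyp3a11 rose by 2.11. With the hepatocyte markers as a covariate 4 members passed against RevDKO and 2 against Control. Without the 3 libraries with much Alb 3 passed in each. Siglech, a marker of plasmacytoid dendritic cells, the specialised producers of type I interferon, rose in RevScapTKO by 1.32 ± 0.31 against RevDKO (SE, adjusted p = 0.0122) and by 1.54 ± 0.31 against Control (SE, adjusted p = 0.00232). Of the other 2 plasmacytoid markers high enough to test neither passed, and the part of these cells in the result was not tested. The summed level of all listed plasmacytoid markers ran from 4.22 to 50.9 RPKTM in Control, 4.19 to 42.1 in RevDKO and 13.8 to 38.7 in RevScapTKO. Over the 36 macrophage libraries, deviations from group means of the members and of these markers had a Pearson r of -0.16 and a Spearman rho of -0.15. Of 6 monocyte markers 1, Ly6c2, rose against Control, by 1.2 ± 0.34 (SE, adjusted p = 0.0407), and 0 of 6 passed against RevDKO.

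Few other interferon genes passed in macrophages. Of 43 other type I interferon-stimulated genes 2 rose against RevDKO, Oasl1 (1.27 ± 0.34, SE, adjusted p = 0.0316) and the RNA-editing enzyme Adar (0.80 ± 0.22, SE, adjusted p = 0.0351), with a list median of 0.52. Against Control 2 rose, Apol9b (1.36) and Mx2 (1.16), with a list median of 0.28. Tlr9, a receptor for unmethylated DNA, was 2.14 ± 0.47 higher than in RevDKO (SE, adjusted p = 0.00593). Stat2 rose by 0.88 ± 0.20 and the kinase Ikbke by 0.88 ± 0.20 against Control (SE, adjusted p = 0.00687 and 0.00799). Of 21 interferon gamma-responsive genes 0 passed against RevDKO and 1, Nlrc5 (0.70), against Control.

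Libraries of the same genotype, time and number were compared between cell types. The mean log2 level of the 8 members had a Pearson r of 0.85 and a Spearman rho of 0.77 over the 12 RevScapTKO pairs, 0.66 and 0.74 over the RevDKO pairs, and 0.48 and 0.35 over the Control pairs. For the deviations from group means over all 36 pairs r was 0.72 and rho 0.67. The same number was highest in both cell types at 3 of 4 time points in RevScapTKO, 2 of 4 in RevDKO and 1 of 4 in Control. With 3 numbers per time point some such matches arise by chance. The labels do not say whether a number marks the same animal, and the 2 tables were normalized apart. Of the 36 hepatocyte libraries the highest mean was that of RevScapTKO ZT22 replicate 2 (7.33), as it was among the 36 macrophage libraries (7.19).

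**Figure D5:**
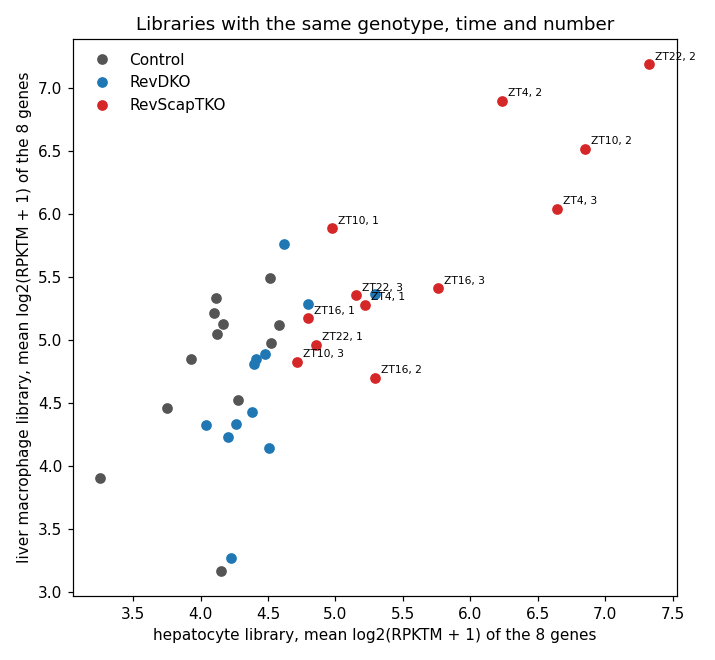
Mean log2(RPKTM + 1) of the 8 genes in the liver macrophage library (vertical axis) against the hepatocyte library (horizontal axis) with the same genotype, time point and number, 1 point per pair, with RevScapTKO pairs labelled by time and number. The RevScapTKO pairs at ZT22, ZT4 and ZT10 numbered 2 and at ZT4 numbered 3 stand apart at the upper right.

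No member passed the limma F test between time points in any genotype or cell type. It called 0 members in Control (beside 6.61% of all genes), RevDKO (2.48%), RevScapTKO (0.87%) and ScapKO (1.3%) hepatocytes. In macrophages it called 0 in Control (0.0645%), RevDKO (2.82%), RevScapTKO (0.0645%) and ScapKO (0%). At an unadjusted p under 0.05 there were 2, 0, 0 and 1 members in hepatocytes and 0, 3, 0 and 1 in macrophages. JTK_CYCLE, a rank test of 24 h patterns, called 0 members when each series was entered once. It also called 0 of all genes in each of the 8 series, so at this threshold it shows nothing of the members. Before adjustment over genes, its p under 0.05 took in 2 members in Control (beside 1569 of 13326 genes) and 1 in ScapKO (1095 of 12724) hepatocytes. In macrophages it took in 3 in RevDKO (685 of 13947) and 2 in ScapKO (807 of 13930). In the remaining series it took in 0. Ifit1 in Control hepatocytes had the smallest limma p of that group, with 32.3 ± 7.73 RPKTM at ZT4, 26.0 ± 3.59 at ZT10, 12.9 ± 5.58 at ZT16 and 16.3 ± 8.37 at ZT22 (SD, n = 3). Its limma p was 0.0373 and the adjusted p 0.207. Rsad2 had means of 57.0 ± 10.3 RPKTM at ZT4 and 23.6 ± 2.41 at ZT10 (SD, n = 3), and its limma adjusted p was 0.242. In macrophages of RevDKO the members with an unadjusted p under 0.05 were Isg15, Rsad2 and Usp18, with limma adjusted p of 0.155, 0.163 and 0.231.

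The shape of the daily pattern did not differ past the threshold between genotypes for any member. In hepatocytes 0 members passed in RevDKO against Control (beside 0.158% of all genes), RevScapTKO against RevDKO (0%) and RevScapTKO against Control (0.143%). In macrophages 0 passed in each of the 3 contrasts (0% of all genes each). The sole unadjusted limma p under 0.05 was that of Isg15 in RevDKO against Control macrophages, at 0.0122 with an adjusted p of 0.818. There Isg15 in RevDKO was 17.7, 5.25 and 2.19 RPKTM at ZT4, 2.67, 0 and 7.74 at ZT10, 0, 0 and 0.498 at ZT16, and 1.41, 10.7 and 7.61 at ZT22. In Control it was 4.23, 1.723 and 13.3 at ZT16. 

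In the ScapKO tables, which have no Control libraries, the members are given as levels. In ScapKO hepatocytes Irf7 was highest, from 75.7 to 184 RPKTM with a median of 138, followed by Rsad2 with a median of 75.9 (49.7 to 121), Ifit1 with 55.2 (19.1 to 131), Usp18 with 48.9 (23.1 to 126), Ifit3 with 28.4 (18.1 to 51.6), Isg15 with 21.6 (5.53 to 44.6), Ifit2 with 20.4 (10.4 to 56.0) and Oasl2 with 12.8 (4.42 to 22.02). In ScapKO macrophages Irf7 was again highest with a median of 1523 RPKTM (585 to 2491), followed by Ifit2 with 468 (121 to 808), Oasl2 with 405 (103 to 729), Rsad2 with 286 (123 to 581), Ifit3 with 268 (135 to 388), Usp18 with 106 (47.1 to 178), Isg15 with 61.1 (29.4 to 113) and Ifit1 with 60.1 (28.7 to 118.3). The ranges of neighbours in both orders overlapped.

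In ScapKO macrophages the library at ZT22 replicate 2 was the lowest of all 12 for Ifit1 (28.7 RPKTM), Ifit2 (121), Irf7 (585), Isg15 (29.4), Oasl2 (103) and Rsad2 (123). Over these 12 libraries the deviations of the members from their group means correlated with those of the macrophage markers (r = 0.77, rho = 0.77, r = 0.73 without the 2 farthest libraries) and had a Pearson r of -0.87 with the hepatocyte markers. The members correlated with each other in all 28 pairs (median r = 0.77). In ScapKO hepatocytes 23 of 28 pairs of members were positive, with a median r of 0.35. Isg15 there had means of 33.8 ± 10.7 RPKTM at ZT4, 28.1 ± 1.62 at ZT10, 15.5 ± 4.24 at ZT16 and 12.7 ± 7.30 at ZT22 (SD, n = 3). Its limma p between time points was 0.015 and the adjusted p 0.243. Irf7 in ScapKO macrophages had means of 1505 ± 386 RPKTM at ZT4, 2245 ± 313 at ZT10, 1486 ± 217 at ZT16 and 1061 ± 450 at ZT22 (SD, n = 3). Its limma p between time points was 0.022 and the adjusted p 0.545.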

How the data were processed

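Total RNA of isolated hepatocytes and liver macrophages was depleted of ribosomal RNA and made into stranded libraries. Per the authors, STAR aligned the reads to mm9, and HOMER quantified each RefSeq transcript (versions not given in the sources used here). The deposited values are RPKM scaled by 10 (RPKTM), quantile normalized by the authors within each of 4 tables of 42322 transcripts, which hides any overall shift and leaves no depth.

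Groups followed the sample titles. For each symbol the transcript with the highest mean was used, if it was above 5 RPKTM in 3 or more libraries (13326, 13947, 12724 and 13930 genes). Values were fitted as log2(RPKTM + 1) with limma 3.58.1 (R 4.3.3, mean-variance trend, 1 coefficient per genotype and time point). Contrasts were the average over 4 time points, the change of pattern and the time of day (F tests with 3 degrees of freedom). P-values were Benjamini-Hochberg adjusted over all genes, with a threshold of 0.05. Fold changes on this scale understate those of low genes. JTK_CYCLE was written in Python 3.11.15 (numpy 2.4.6, scipy 1.17.1). Scripts were tested on simulated data: changes of 1 log2 unit between RevScapTKO and RevDKO were recovered for 95% of 100 genes in hepatocytes (13237 genes) and 63% in macrophages (13218 genes), and daily patterns changed by 3 log2 units for 87.5% and 45% of 200 genes. Promoter windows were read from the NCBIM37 (mm9) genome.

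All 8 members are named. Of each further list the genes named are among the 6 with the largest difference past the threshold, or are pathway components given with their value, and up to 5 genes per cell type are named by likeness. 1 gene that these rules would name is not reported here. The members and lists were chosen with earlier results of these data known. Alternatives covered pseudocounts, filters, transcripts, library weights, marker covariates, the replicate block and leaving out single libraries.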

Additional observations from a re-analysis of the deposited data

How the results depend on the processing

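Every count here is of the 8 members past the threshold in the average over the day, or between time points where that is said. In hepatocytes RevDKO against Control went from 0 to 2 with library weights and to 1 with only the 2 genotypes in the fit. RevScapTKO against RevDKO fell from 7 to 0 with the macrophage marker covariate. RevScapTKO against Control fell from 8 to 1 with that covariate, which went largely with genotype, and to 5 with an endothelial marker covariate. In macrophages RevScapTKO against RevDKO, 3 at first, was 0 without the 4 RevScapTKO libraries numbered 2, 6 with an endothelial covariate and 5 with a macrophage covariate, and ran from 2 to 5 when single libraries were left out. RevScapTKO against Control, also 3, was 1 without the filter on low values, 0 without the libraries numbered 2, 6 with a macrophage covariate, and ran from 1 to 4 over single libraries. The endothelial covariate, the macrophage covariate in macrophages, and the libraries numbered 2 or rich in Alb left out were chosen after seeing the data.

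Between time points library weights gave 1 member in RevDKO and 1 in RevScapTKO hepatocytes and 5 in ScapKO macrophages, where the weights did not converge (0.068 to 30.5), and the marker covariate gave 1 in Control hepatocytes. JTK_CYCLE with each series entered 2 times gave 5 in Control (beside 3947 of 13326 genes), 1 in RevDKO (3939 of 13326) and 2 in ScapKO (2717 of 12724) hepatocytes, and 3 in RevDKO (1644 of 13947) and 4 in ScapKO (1722 of 13930) macrophages. That doubling, which the paper also used, repeats the same values, and it called 19.4% of simulated series without a rhythm before adjustment. Where not stated otherwise, the cause was not tested.

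Replicate numbers were not taken to pair the samples, since the labels name no shared source and correlations of deviations were over 0.1 in 3 to 8 of 12 pairs per contrast, not in all. As a hint from the data, 6 to 8 of 12 samples correlated best with their own number, and some would do so by chance. With the replicate block the macrophage count of RevScapTKO against RevDKO went from 3 to 4 (Irf7, adjusted p = 0.0279), and no other count of the 8 members in the averages over the day changed.

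Signs turned in RevDKO against Control, where no member was called, and in 1 other contrast. In hepatocytes Ifit2 was -0.067 with the endothelial covariate, and Ifit1 ran from -0.060 to 0.21 over single libraries. In macrophages Isg15 was 0.0019 with a pseudocount of 5. With the macrophage covariate Ifit3 was 0.26, Isg15 0.052 and Oasl2 0.071, and without the libraries rich in Alb Ifit3 was 0.16, Isg15 0.052 and Usp18 0.0089. Over single libraries Ifit2 ran from -0.22 to 0.65, Ifit3 from -0.20 to 0.048 and Isg15 from -0.31 to 0.082. Irf7 in RevScapTKO against Control was -0.022 without the libraries numbered 2. In hepatocytes all 376 member values of RevScapTKO against RevDKO and all 376 against Control kept their sign over these settings, as did 392 of 392 and 391 of 392 in macrophages.

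Over settings other than single libraries, the number of all genes past the threshold ran from 355 to 6791 in RevScapTKO against RevDKO and from 793 to 9197 against Control in hepatocytes, and from 207 to 1262 and 369 to 1779 in macrophages. In RevDKO against Control it ran from 520 to 1437 in hepatocytes and from 45 to 235 in macrophages. Depth is unknown, so the limit of detection of the lowest member, Isg15, could not be set.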
